A study of Rattus norvegicus with 16 samples.

Results

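Transcript levels of 10 circadian clock genes were examined in acutely purified Schwann cells and whole sciatic nerve of the rat before and after crush. The genes were Npas2, Clock, Arntl, Per1, Per2, Per3, Cry1, Cry2, Nr1d1 and Dbp. They were taken by name from the 31038 genes in the deposited tables, and all 10 were found and passed the filter on low counts. Npas2 is in the set because its rise in injured Schwann cells is among the clearest in these data. Its Schwann cell values are therefore given as a description with no test, and its tests are limited to whole nerve. The other 9 genes encode its partner, a close relative, and repressors and outputs of the same feedback loop.

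The circadian clock is a transcription loop that runs in most cells of the body. NPAS2 and CLOCK are closely related basic helix-loop-helix PAS proteins, and either of them pairs with the product of Arntl (also named Bmal1) to bind E-box sequences and switch on the Per and Cry genes. PER and CRY proteins accumulate and block their own activators, while NR1D1 (REV-ERBα) represses Arntl and closes another arm of the loop, and DBP carries the rhythm to output genes through D-box sequences. Because the loop turns over daily, the level of most of these transcripts in a tissue depends on the hour at which it is taken. The hour of tissue collection is not given in the sources used here.

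There were 16 RNA-seq libraries from Rattus norvegicus, 2 in each of 8 groups, and the labels give postnatal day 18 for every sample. The paper states that crush surgery was done at postnatal day 18. Crushed animals were therefore older at collection, and age cannot be told apart from day after crush. Schwann cell (SC) and whole nerve (WN) groups were each uncrushed or taken 3, 5 or 7 days after sciatic nerve crush. The uncrushed groups were naive nerves without a sham operation. From crushed nerves only the part distal to the crush was used, and the matching stretch was taken from uncrushed nerves. A sample of purified cells was pooled from 10 nerves or more. To purify them, cells were dissociated with enzymes, depleted of CD45-positive and Thy1-positive cells and collected on the O4 antibody, whereas whole nerves went to RNA extraction without dissociation. Nothing in the labels says that the 2 libraries of a group came from separate litters or days, so p-values measure the spread between these libraries, which may be technical.

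Libraries held between 10555067 and 27562637 expected counts. Levels are given as TMM-scaled FPKM, which is the deposited FPKM divided by the library's normalization factor, because the uncrushed whole nerve libraries lay on a different scale (factors of 0.82 and 0.821, against 0.995 to 1.07 in the other 14 libraries). The labelled cell type was checked on marker lists. The 8 Schwann cell markers summed to between 3881 and 9125 TMM-scaled FPKM in the SC libraries, between 22050 and 26240 in uncrushed WN, above every SC library, and between 2199 and 4522 in injured WN. The sum was lower after injury in both tissues, while 2, 2 and 3 of the 8 were called higher in SC on days 3, 5 and 7, and its part in the changes of the clock genes was not tested. The 7 macrophage markers summed to between 2.55 and 12.75 in SC and between 149.7 and 533 in WN libraries, and the 5 endothelial markers to between 0.563 and 4.11 in SC and between 90.7 and 108 in WN. The 6 fibroblast markers summed to between 1308 and 1332 in the uncrushed SC libraries and to between 184 and 329 in the injured ones, a difference that lay largely in Col3a1, at 988 and 1017 uncrushed and between 20.1 and 119 injured. Of its 6 genes, 1, 0 and 0 were called higher and 2, 3 and 1 lower on days 3, 5 and 7. The 5 pericyte and muscle markers summed to between 35.25 and 46.1 in uncrushed and 7.62 and 17.4 in injured SC and between 277 and 367 in WN, and the 3 perineurial markers to between 11.9 and 19.98 in SC and 137.5 and 238 in WN. Of the pericyte and muscle markers, Pdgfrb was called lower in SC on days 3, 5 and 7 and the other 4 were not called. Over all genes tested in SC, 25.7%, 25.6% and 21.9% were called lower and 26.9%, 29.0% and 25.0% higher on these days, so nothing is read from these counts. The part of these signals in the changes of the clock genes was not tested. No Schwann cell, macrophage, fibroblast, pericyte or muscle marker was at 0 in both libraries of a group, while the endothelial markers Pecam1 in uncrushed SC and Esam in SC on day 7 and the perineurial marker Msln in both of these groups were at 0 in both libraries.

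The starts of these genes show which loop motifs lie close to them. RefSeq promoter windows of 300 bases (GRCr8, 250 bases before the annotated start and 50 from it on) were available for 9 of the 10 genes, in 11 windows. They were searched on both strands for the E-box CACGTG, the E-box-like CACGTT, the D-box TTATGTAA and the ROR element TAGGTCA, and no 2 motifs matched at the same bases in these windows. In all 33469 windows the shares with a match were 6.42%, 4.83%, 0.893% and 2.63%. Windows of Arntl, Per2, Cry2 and Nr1d1 held matches, and those of Npas2, Clock, Per1, Per3 and Dbp held none of these letters. Cry1 had no window. Shown here are Npas2, the gene the set was built around, and the 3 genes whose windows hold motifs of different arms of the loop, 5′ to 3′ on the strand of the gene, with motif matches in capitals. Npas2 lies at chr9:48959315-48959614 on the plus strand, Arntl at chr1:176766078-176766377 on the plus strand, Per2 at chr9:99496944-99497243 on the minus strand and the second Nr1d1 window at chr10:84229405-84229704 on the minus strand.
Npas2: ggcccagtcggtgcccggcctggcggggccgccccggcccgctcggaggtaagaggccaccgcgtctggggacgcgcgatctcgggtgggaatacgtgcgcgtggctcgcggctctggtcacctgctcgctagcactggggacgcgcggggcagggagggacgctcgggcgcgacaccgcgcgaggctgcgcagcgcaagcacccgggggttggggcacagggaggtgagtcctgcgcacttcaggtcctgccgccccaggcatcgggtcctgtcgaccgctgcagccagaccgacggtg
Arntl: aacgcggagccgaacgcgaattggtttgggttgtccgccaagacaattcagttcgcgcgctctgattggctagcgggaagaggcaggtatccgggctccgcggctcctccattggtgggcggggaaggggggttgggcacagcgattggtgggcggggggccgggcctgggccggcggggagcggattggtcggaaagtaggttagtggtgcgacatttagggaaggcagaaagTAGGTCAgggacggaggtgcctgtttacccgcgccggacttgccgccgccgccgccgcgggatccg
Per2: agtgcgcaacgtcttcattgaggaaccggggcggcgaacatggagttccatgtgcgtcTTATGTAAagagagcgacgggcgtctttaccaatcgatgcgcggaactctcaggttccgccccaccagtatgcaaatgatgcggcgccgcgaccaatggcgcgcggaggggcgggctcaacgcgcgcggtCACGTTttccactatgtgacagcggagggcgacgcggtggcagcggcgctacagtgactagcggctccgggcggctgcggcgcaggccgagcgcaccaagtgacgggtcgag
Nr1d1: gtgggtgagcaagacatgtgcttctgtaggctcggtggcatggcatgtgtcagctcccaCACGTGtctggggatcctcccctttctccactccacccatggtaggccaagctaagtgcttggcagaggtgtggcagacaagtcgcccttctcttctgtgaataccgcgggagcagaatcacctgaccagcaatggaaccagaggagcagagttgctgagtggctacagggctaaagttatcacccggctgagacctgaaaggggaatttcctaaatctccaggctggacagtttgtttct
The Arntl window carries the ROR element, the sequence through which NR1D1 is known to repress, beginning at base -16 from the start. Per2 carries a D-box at base -192 and an E-box-like match at base -62, and the Nr1d1 window an E-box at base -191. A match is a string of letters and was not tested as a binding site.

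In Schwann cells Npas2 stood higher after crush, while most of the calls among the other 9 genes were falls. Of these 9, 4 were lower and 1 was higher on day 3, 6 were lower and 1 was higher on day 5, and 7 were lower and 2 were higher on day 7, at an adjusted p under 0.05 in edgeR's quasi-likelihood test. The background over all 14961 genes tested was 52.5%, 54.6% and 46.9% called on days 3, 5 and 7, with 25.7%, 25.6% and 21.9% lower and 26.9%, 29.0% and 25.0% higher. Since Npas2 was chosen on these contrasts, nothing further is read from the counts. The median log2 change of the 9 genes was -0.42, -0.76 and -0.72, against 0.00, 0.06 and 0.06 for all genes. By level, 5 of the 9 (Clock, Arntl, Per1, Per2 and Per3) had all 6 injured SC libraries below both uncrushed ones, a pattern of 27.0% of all genes. Nr1d1 had all of them above, as did 28.2% of genes (55.2% in either direction), and Cry1, Cry2 and Dbp overlapped.

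In whole nerve 8, 8 and 6 of the 10 genes were called on days 3, 5 and 7, where 45.6%, 38.4% and 31.3% of the 15831 genes tested were. Of the 10, 7, 6 and 5 were lower, against 22.5%, 19.5% and 15.9% of all genes, and 1, 2 and 1 were higher, against 23.1%, 18.9% and 15.4%. Npas2, Clock, Per1, Per3, Cry2 and Nr1d1 were called on all 3 days, Arntl on day 5, Per2 on days 3 and 5, Dbp on day 3 and Cry1 on none. By level, 4 of the 10 genes (Clock, Per1, Per3 and Cry2) had all injured WN libraries below both uncrushed ones and Npas2 had all above, where 17.2% and 26.9% of all genes did (44.2% in either direction). In these bulk samples, fewer cells of a type and less RNA per cell cannot be told apart. The macrophage markers rose beside these changes in WN, with 7, 7 and 6 of 7 called higher, and the part of cell composition was not tested.

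**Figure D1:**
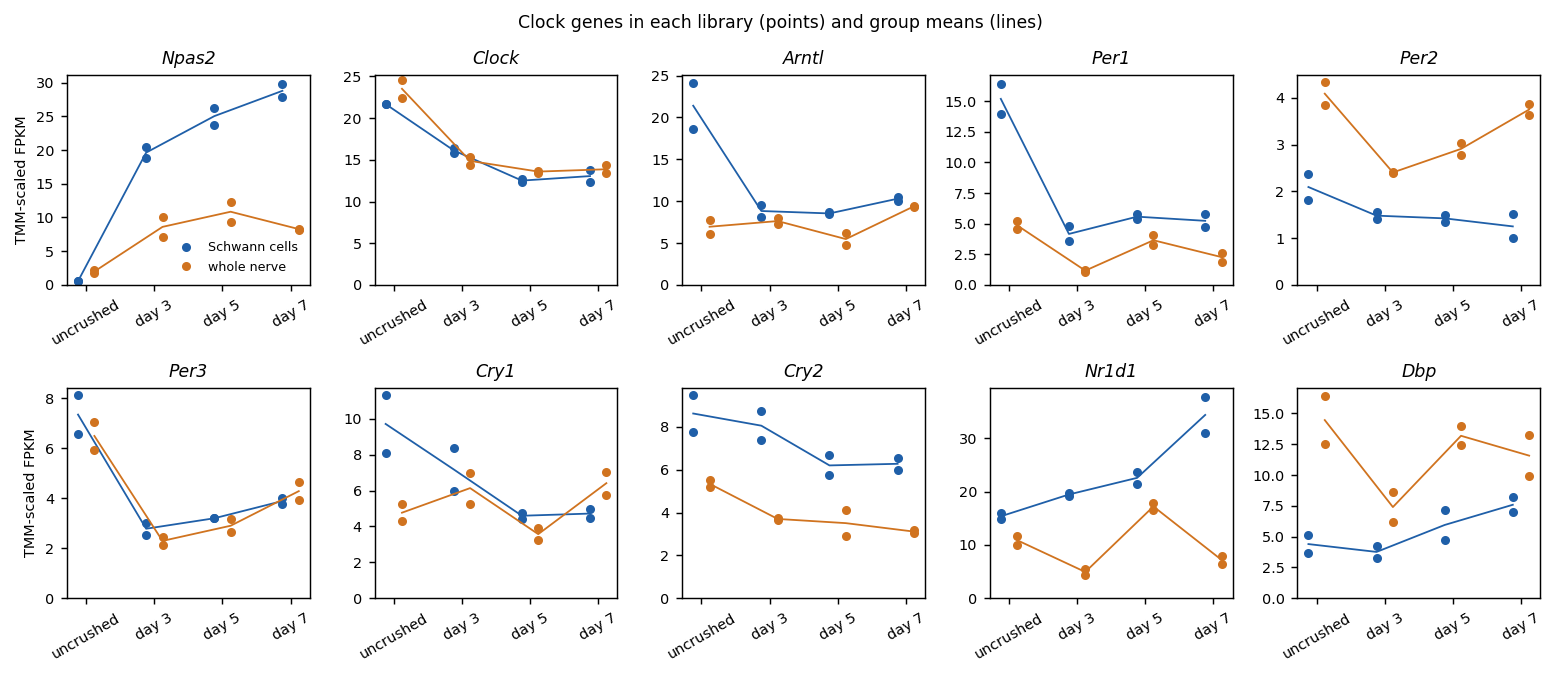
TMM-scaled FPKM of the 10 clock genes in each of the 16 libraries, for Schwann cells and whole nerve, uncrushed and 3, 5 and 7 days after crush. Npas2 goes from 0.5404 and 0.581 in uncrushed Schwann cells to between 18.8 and 29.7 in injured ones, while Clock, Arntl, Per1, Per2 and Per3 lie below their uncrushed libraries in every injured Schwann cell library.

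Npas2 went from the lowest mean level of the 10 genes in uncrushed Schwann cells to the highest on days 3 and 5 and next to the highest on day 7. Its TMM-scaled FPKM in SC was 0.5404 and 0.581 uncrushed, 20.5 and 18.8 on day 3, 23.8 and 26.3 on day 5 and 27.8 and 29.7 on day 7. The uncrushed values rest on 31 and 28 counts, and the injured ones on 1262 or more. All 6 injured libraries lay above both uncrushed ones, and the days did not overlap one another, although on day 3 the libraries of Npas2 overlapped those of Nr1d1. The fitted change was 35.6-fold, 45.1-fold and 51.65-fold on days 3, 5 and 7 (log2 changes of 5.15, 5.49 and 5.69, SE 0.14 each, not tested), and day 7 stood 1.45-fold above day 3.

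Whole nerve values were not used to choose the gene, and there Npas2 rose. The level was 1.73 and 2.25 uncrushed, 7.18 and 10.04 on day 3, 9.402 and 12.3 on day 5 and 8.2 and 8.36 on day 7. All injured libraries lay above the uncrushed pair, with overlap of day 3 with both later days. The rise was 4.15-fold, 5.13-fold and 3.915-fold (log2 2.05 ± 0.21, 2.36 ± 0.21 and 1.97 ± 0.22 SE, edgeR adjusted p = 2.74e-05, 1.39e-05 and 6.95e-05), and the WN comparisons of day 7 with day 3, day 5 with day 3 and day 7 with day 5 did not pass the threshold for Npas2.

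Set in order over both tissues, the Npas2 group means were 28.8 ± 1.35, 25.03 ± 1.76 and 19.6 ± 1.225 in SC on days 7, 5 and 3, then 10.85 ± 2.055, 8.61 ± 2.03 and 8.28 ± 0.113 in WN on days 5, 3 and 7, then 1.99 ± 0.3675 in uncrushed WN and 0.561 ± 0.0288 in uncrushed SC (SD, n = 2 each). Among neighbours in that order, WN days 5 and 3 overlapped and so did WN days 3 and 7, and the libraries of the other neighbours did not. Uncrushed SC thus held less Npas2 than uncrushed WN, and injured SC held more than injured WN. The fitted SC to WN difference was -1.81 on the log2 scale uncrushed and 1.19, 1.20 and 1.80 on days 3, 5 and 7, with no test.

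Clock, whose product NPAS2 can stand in for, fell in both tissues. Levels in SC were 21.7 in both libraries uncrushed, 16.4 and 15.9 on day 3, 12.7 and 12.35 on day 5 and 13.8 and 12.3 on day 7. Levels in WN were 24.6 and 22.4 uncrushed and between 13.4 and 15.3 in the 6 injured libraries. Every injured library lay below the uncrushed ones of its tissue. The fall in SC was 1.31-fold, 1.697-fold and 1.64-fold (log2 -0.39 ± 0.09, -0.76 ± 0.09 and -0.72 ± 0.09 SE, adjusted p = 0.00606, 0.000108 and 0.000214), and in WN 1.66-fold, 1.85-fold and 1.81-fold (adjusted p = 7.66e-05, 2.63e-05 and 4.63e-05). The first of the SC calls was lost without the second day 3 library (adjusted p = 0.0644). Clock was not called between SC and WN at any time point.

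Set against each other, Npas2 and Clock changed places in Schwann cells. The ratio of Npas2 to Clock, both measured per length, was 0.0249 and 0.0268 uncrushed, 1.25 and 1.18 on day 3, 1.875 and 2.13 on day 5 and 2.02 and 2.42 on day 7 in SC. In WN the ratio was 0.0704 and 0.1004 uncrushed, 0.498 and 0.655 on day 3, 0.698 and 0.897 on day 5 and 0.613 and 0.581 on day 7. Npas2 exceeded Clock in the 6 injured SC libraries and in none of the other 10. The sum of the pair was 22.2 and 22.3 in uncrushed SC and between 34.6 and 42.05 after crush, while in WN it was 26.35 and 24.7 uncrushed and between 21.6 and 26.03 after crush. These ratios and sums hold the Npas2 values that chose the gene and are a description.

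Arntl, the shared partner of both, fell in Schwann cells and not in the same way in whole nerve. In SC it stood at 24.15 and 18.6 uncrushed, 9.56 and 8.09 on day 3, 8.65 and 8.42 on day 5 and 10.1 and 10.5 on day 7. In WN it stood at 7.77 and 6.12 uncrushed, 7.295 and 7.955 on day 3, 6.17 and 4.78 on day 5 and 9.48 and 9.295 on day 7. Injured SC libraries lay well below the uncrushed ones, whereas injured and uncrushed WN overlapped. The fall in SC was 2.37-fold, 2.43-fold and 2.01-fold (log2 -1.24 ± 0.15, -1.28 ± 0.15 and -1.01 ± 0.15 SE, adjusted p = 8.07e-05, 7.21e-05 and 0.000425). In WN the changes were 0.04, -0.49 and 0.33 on the log2 scale (adjusted p = 0.872, 0.0365 and 0.154). The day 5 call in WN was lost without the first uncrushed, either day 3, the second day 5 or the first day 7 library (adjusted p up to 0.245), in DESeq2 (0.075), in a fit on all 16 libraries (0.0821) and in a fit on the 4 libraries compared (0.0696).

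The difference between the tissues was itself past the threshold for Arntl on every day. The log2 change in SC minus that in WN was -1.38 ± 0.22, -0.92 ± 0.23 and -1.45 ± 0.23 (SE, adjusted p = 0.000373, 0.00779 and 0.000288). Counted over the 9 genes other than Npas2, 1 had a higher and 1 a lower change in SC on day 3, where 12.3% and 13.7% of 16829 genes did (26.0% in all). Day 5 gave 2 lower changes, Arntl and Per1, against 14.9% of genes lower (27.5% in all), and day 7 gave 2 higher and 2 lower against 11.6% and 14.4% (26.0% in all). Before crush Arntl was 2.997-fold higher in SC than in WN (adjusted p = 9.63e-07), and on day 5 it was 1.59-fold higher (adjusted p = 0.00306). The latter was lost without the second day 5 WN library (adjusted p = 0.0522).

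Levels of the 9 genes were also set between the tissues at each time. Uncrushed, 6 were higher and 2 lower in SC, where 29.1% and 35.3% of all genes were (64.4% in all). On day 3 it was 3 and 2 against 24.5% and 32.8% (57.3% in all), on day 5 4 and 2 against 23.2% and 28.4% (51.7% in all), and on day 7 3 and 1 against 22.4% and 28.7% (51.0% in all). Per1, Cry2 and Nr1d1 were higher in SC at all 4 times and Per2 was lower at all 4. The uncrushed call of Per3 (adjusted p = 0.0424) was lost without the first uncrushed SC, the first uncrushed WN, either day 3 WN, either day 5 SC, the first day 5 WN, either day 7 SC or the first day 7 WN library (adjusted p up to 0.309), in DESeq2 (0.0598), with no filter on low counts (0.0738) and in a fit on the 4 libraries compared (0.074).

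**Figure D2:**
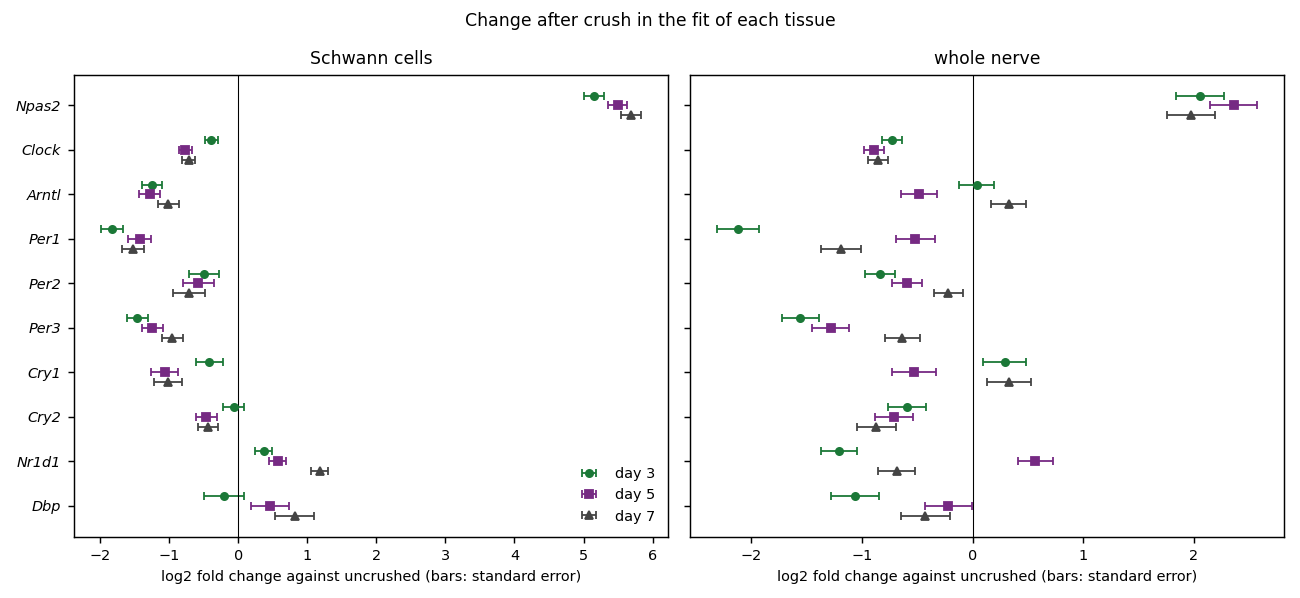
Log2 fold change of each clock gene against uncrushed on days 3, 5 and 7 (circles, squares and triangles) with its standard error (bars), for Schwann cells on the left and whole nerve on the right, on horizontal scales that differ. Npas2 lies above 5 in Schwann cells and at 2.05, 2.36 and 1.97 in whole nerve, and Arntl lies at -1.24, -1.28 and -1.01 in Schwann cells and at 0.04, -0.49 and 0.33 in whole nerve.

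Of the Period genes, which encode repressors that act with CRY, Per1 had the lowest day 3 estimates in both tissues. SC libraries held 13.97 and 16.4 uncrushed, 3.55 and 4.78 on day 3, 5.79 and 5.36 on day 5 and 5.76 and 4.71 on day 7. WN libraries held 4.53 and 5.199 uncrushed, 1.09 and 1.24 on day 3, 3.24 and 4.05 on day 5 and 2.635 and 1.91 on day 7. All injured libraries lay below the uncrushed ones of their tissue, and in WN day 5 lay between the other days and uncrushed without overlap. The fall in SC was 3.545-fold, 2.69-fold and 2.87-fold (adjusted p = 1.21e-05, 6.28e-05 and 5.91e-05). In WN the fall was 4.35-fold, 1.43-fold and 2.28-fold (adjusted p = 8.08e-06, 0.0399 and 0.000686), and the day 5 call was lost without either uncrushed, either day 3 or the first day 5 library (adjusted p up to 0.259) and in a fit on all 16 libraries (0.0861). The changes differed between tissues on day 5 (log2 difference -1.03 ± 0.25 SE, adjusted p = 0.00681). Per1 was 3.125-fold higher in SC than in WN uncrushed and 3.57-fold, 1.53-fold and 2.29-fold higher on days 3, 5 and 7 (adjusted p = 1.83e-06, 1.31e-06, 0.00983 and 8.57e-05), with the day 5 call lost without the first day 5 SC or the first day 5 WN library (adjusted p up to 0.111).

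Per1 is also known as a gene of rapid response to stimulation and to glucocorticoid, so lists of such genes were set beside it. The 10 immediate-early genes summed to between 4657 and 5484 TMM-scaled FPKM in uncrushed SC, 1283 and 1606 in injured SC, 77.3 and 101 in uncrushed WN and 151 and 232 in injured WN. In SC all 10 were lower on days 3, 5 and 7 (median log2 change -2.57, -2.01 and -1.82), whereas in WN 5, 4 and 4 were higher. On day 3 they ran in SC from -0.39 for Atf3 to -3.81 for Ier2 on the log2 scale. The paper anticipates no major expression change during purification except in immediate early genes. The part of immediate-early expression in the Per1 change of SC was not tested. Of the 7 glucocorticoid-responsive genes, Per1 among them, 5, 5 and 4 were lower in SC and 5, 5 and 4 in WN. The shares of all genes called lower on these days were 25.7%, 25.6% and 21.9% in SC and 22.5%, 19.5% and 15.9% in WN, and 23.1%, 18.9% and 15.4% were called higher in WN. Fkbp5, a chaperone gene induced by glucocorticoid, was the 1 gene of the list called higher in both tissues on every day (log2 2.68, 2.11 and 1.76 in SC and 1.52, 1.13 and 1.20 in WN). Zbtb16, a transcription factor gene induced by glucocorticoid, held 60 and 37 counts in uncrushed and between 1 and 9 in injured SC. It passed the filter on low counts in SC through the uncrushed libraries, as Fosb and Junb did in WN through the injured ones and Ier2 through those of day 3. The counts and medians of both lists were taken with these genes and Per1 in their lists, so nothing is read from them.

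Per3 fell in both tissues and stood closer to its uncrushed level on day 7 than on day 3. The SC libraries read 8.115 and 6.57 uncrushed, 2.54 and 3.02 on day 3, 3.19 and 3.202 on day 5 and 4.01 and 3.76 on day 7. The WN libraries read 5.92 and 7.06 uncrushed, 2.15 and 2.44 on day 3, 2.63 and 3.17 on day 5 and 4.63 and 3.94 on day 7. Each day 7 library lay above both day 3 libraries and below both uncrushed libraries of its tissue. The fall was 2.75-fold, 2.37-fold and 1.93-fold in SC (adjusted p = 3.71e-05, 0.000113 and 0.000755) and 2.945-fold, 2.435-fold and 1.55-fold in WN (adjusted p = 3.09e-05, 0.000163 and 0.0132). The day 7 call in WN was lost without the second uncrushed or the second day 7 library (adjusted p up to 0.0794). In WN day 7 was 1.897-fold above day 3 (adjusted p = 0.00314). In SC day 7 was 1.42-fold above day 3 (adjusted p = 0.044), a call lost without either day 3, either day 5 or either day 7 library (adjusted p up to 0.233), in DESeq2 (0.101) and with replicate number as a block (0.0637).

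Per2 had the lowest level of the Period genes in Schwann cells. It measured 2.37 and 1.81 uncrushed, 1.405 and 1.56 on day 3, 1.35 and 1.497 on day 5 and 1.51 and 0.994 on day 7 in SC. It measured 4.33 and 3.85 uncrushed, 2.399 and 2.41 on day 3, 2.78 and 3.04 on day 5 and 3.87 and 3.63 on day 7 in WN. All injured SC libraries lay below the uncrushed pair, and WN on day 7 overlapped uncrushed. In SC the day 7 fall passed the test (1.64-fold, adjusted p = 0.0279) and was lost without the first uncrushed or the second day 7 library (adjusted p up to 0.181) and in a fit on the 4 libraries compared (0.0549), while the log2 estimates were -0.49 on day 3 (adjusted p = 0.0878) and -0.58 on day 5 (adjusted p = 0.0529). The day 3 estimate passed in a fit on all 16 libraries (0.0311) and without the second uncrushed library (0.0387). The day 5 estimate passed under 6 other settings of normalization, filter and libraries fitted, at an adjusted p of 0.0167 to 0.0404, and without the second uncrushed or either day 7 library. In WN the fall passed on day 3 (1.78-fold, adjusted p = 0.000581) and day 5 (1.51-fold, adjusted p = 0.00609), the latter lost without the first day 5 library (adjusted p = 0.0559). Per2 was below WN in the SC samples of every time point, by 1.89-fold uncrushed and by 1.61-fold, 2.04-fold and 2.88-fold on days 3, 5 and 7 (adjusted p = 0.000608, 0.00563, 0.000349 and 1.12e-05).

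Cry1, which encodes a core repressor, fell in Schwann cells on days 5 and 7. Its SC level was 11.3 and 8.105 uncrushed, 8.37 and 5.98 on day 3, 4.44 and 4.755 on day 5 and 4.97 and 4.46 on day 7. Its WN level was 5.235 and 4.298 uncrushed, 5.28 and 6.997 on day 3, 3.905 and 3.24 on day 5 and 7.045 and 5.78 on day 7. Day 3 overlapped uncrushed in SC and days 5 and 7 did not, while in WN day 5 was the lowest group and day 7 lay above uncrushed. The fall in SC was 2.09-fold on day 5 and 2.03-fold on day 7 (adjusted p = 0.00151 and 0.00247), with a log2 estimate of -0.42 on day 3 (adjusted p = 0.0949). That estimate passed with no filter on low counts (0.0332), without the second uncrushed library (0.0219) and without the first day 3 library (0.0327). None of the 3 comparisons with uncrushed passed in WN (adjusted p = 0.251, 0.0604 and 0.238), and the day 5 estimate of -0.53 passed with no filter (0.038) and with at least 10 counts required in every library (0.0452). The change differed between tissues on day 7 (log2 difference -1.46 ± 0.30 SE, adjusted p = 0.00258).

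Cry2, its paralogue, was called lower on days 5 and 7 in SC and on all 3 days in WN. SC values were 7.76 and 9.498 uncrushed, 7.38 and 8.74 on day 3, 5.74 and 6.67 on day 5 and 6.56 and 6.001 on day 7, and WN values were 5.19 and 5.503 uncrushed and between 2.91 and 4.103 in the 6 injured libraries. Day 3 overlapped uncrushed in SC, and all injured WN libraries lay below the uncrushed pair. The fall in SC was 1.38-fold on day 5 and 1.35-fold on day 7 (adjusted p = 0.0257 and 0.0379). The former was lost without the second uncrushed or the first day 5 library (adjusted p up to 0.157) and the latter without the second uncrushed or either day 7 library (adjusted p up to 0.177). In WN the fall was 1.51-fold, 1.63-fold and 1.83-fold (adjusted p = 0.0161, 0.00859 and 0.00364), and the day 3 call was lost without the second uncrushed or either day 3 library (adjusted p up to 0.0871) and the day 5 call without the second day 5 library (adjusted p = 0.0747). Cry2 was higher in SC at every time point, by 1.625-fold uncrushed and by 2.18-fold, 1.77-fold and 2.03-fold on days 3, 5 and 7 (adjusted p = 0.00188, 3.34e-05, 0.000744 and 0.000155). The record LOC102546693 overlaps Cry2 on the opposite strand in GRCr8 and held 495 and 502 counts in uncrushed SC, between 148 and 609 in injured SC and between 3 and 27 in WN. The library preparation is not stated to keep strand, so reads from their overlap cannot be assigned to either gene. The same limit holds for other genes of the set. In GRCr8, LOC120094671 and LOC134480361 overlap Npas2 on the opposite strand, as LOC134481741 and LOC108352740 overlap Clock and LOC134480412 overlaps Per2. LOC120093541 overlaps Cry1, with its strand not known.

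Nr1d1, the repressor of Arntl, went in opposite directions in the 2 tissues on days 3 and 7. In SC the level was 14.8 and 15.97 uncrushed, 19.7 and 19.3 on day 3, 21.5 and 23.75 on day 5 and 37.8 and 31.01 on day 7. In WN the level was 10.1 and 11.7 uncrushed, 5.49 and 4.38 on day 3, 16.6 and 17.9 on day 5 and 6.39 and 8.01 on day 7. Every injured SC library lay above the uncrushed pair, and in WN day 5 lay above uncrushed while days 3 and 7 lay below it. The rise in SC was 1.29-fold, 1.49-fold and 2.27-fold (adjusted p = 0.0281, 0.00324 and 4.94e-05), and the day 3 call was lost without either uncrushed or either day 3 library (adjusted p up to 0.138), with upper quartile normalization (0.0709), in DESeq2 (0.0768) and in a fit on all 16 libraries (0.058). In WN the gene fell 2.31-fold on day 3, rose 1.48-fold on day 5 and fell 1.61-fold on day 7 (adjusted p = 0.000189, 0.0177 and 0.0096). The day 5 call was lost without the first uncrushed or the second day 5 library (adjusted p up to 0.108) and the day 7 call without the second uncrushed or the first day 7 library (adjusted p up to 0.0844).

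The difference between tissues in the Nr1d1 change was 1.48 ± 0.21 on the log2 scale on day 3 and 1.75 ± 0.21 on day 7 (SE, adjusted p = 0.000114 and 2.73e-05). Nr1d1 was 3.94-fold higher in SC than in WN on day 3 and 4.77-fold higher on day 7 (adjusted p = 4.47e-08 and 1.42e-08). Its higher SC level uncrushed (1.42-fold, adjusted p = 0.00812) was lost without the first uncrushed WN library (adjusted p = 0.0897), and that on day 5 (1.31-fold, adjusted p = 0.0295) without the second day 5 SC or either day 5 WN library (adjusted p up to 0.162). Thra, the thyroid hormone receptor gene that overlaps Nr1d1 on the opposite strand, held 17.4 and 20.4 TMM-scaled FPKM in uncrushed SC and between 9.135 and 13.1 in injured SC, and 30.4 and 22.4 in uncrushed WN and between 13.7 and 18.4 in injured WN. Thra was called lower in both tissues on every day, so in Schwann cells it moved against Nr1d1, although reads from their overlap cannot be assigned to a strand.

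**Figure D3:**
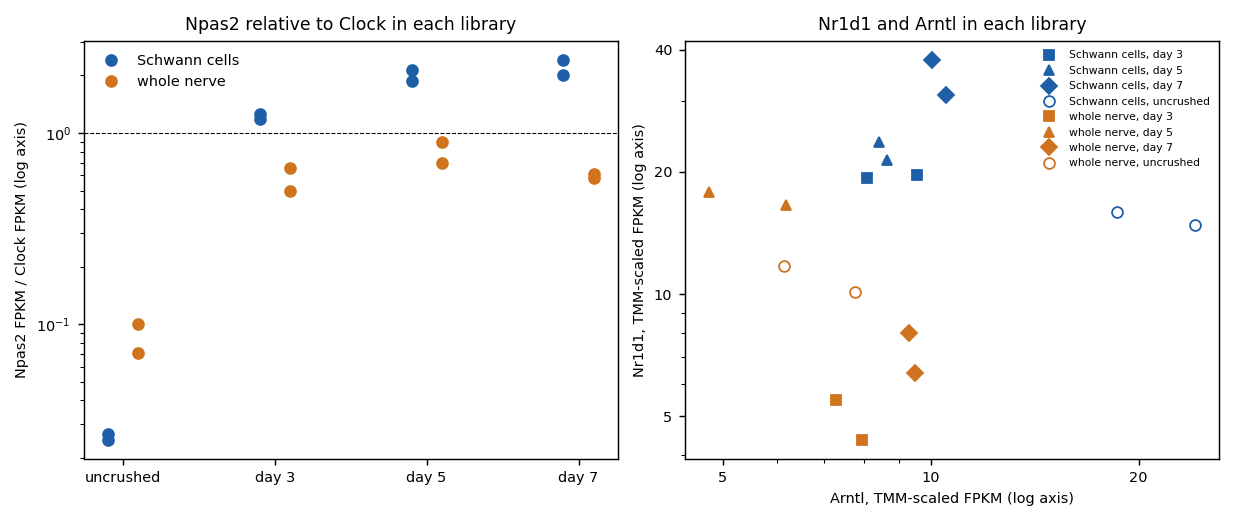
Left, the ratio of Npas2 to Clock FPKM in each library by time on a log axis, with a dashed line at a ratio of 1. Right, Nr1d1 against Arntl in TMM-scaled FPKM with both axes log, each point a library. Injured Schwann cells lie between 1.18 and 2.42 on the left and every other library below 1, and on the right whole nerve on day 5 stands at higher Nr1d1 (16.6 and 17.9) and lower Arntl (6.17 and 4.78) than on days 3 and 7.

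In whole nerve, Nr1d1 and Cry1 were called both between days 5 and 3 and between days 7 and 5, Per1 and Dbp in the former comparison and Arntl and Per3 in the latter. Against day 3, Per1 was 3.04-fold, Nr1d1 3.415-fold and Dbp 1.79-fold higher and Cry1 1.76-fold lower (adjusted p = 0.000842, 0.000216, 0.0323 and 0.0231). These are 4 of 10 members where 11.5% of all genes were called (5.68% higher and 5.87% lower). From day 5 to day 7, Arntl was 1.76-fold, Cry1 1.81-fold and Per3 1.57-fold higher and Nr1d1 2.38-fold lower (adjusted p = 0.0139, 0.0269, 0.0413 and 0.00176), again 4 of 10 members, where 7.40% of all genes were called (3.65% higher and 3.75% lower). Both comparisons were added after these levels were seen and share the day 5 libraries.

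Leaving out 1 library ended some of these calls. Against day 3, Cry1 was lost without the second day 3 or either day 5 library (adjusted p up to 0.202) and Dbp without either day 3 or either day 5 library (adjusted p up to 0.241). From day 5 to day 7, Arntl was lost without the second day 5 or the first day 7 library (adjusted p up to 0.12), Cry1 without either day 5 or the first day 7 library (adjusted p up to 0.179) and Per3 without either day 3, either day 5 or either day 7 library (adjusted p up to 0.227), in DESeq2 (0.0515) and in a fit on the 4 libraries compared (0.0577). Per1 and Nr1d1 against day 3 and Nr1d1 from day 5 to day 7 passed without any one library. The ratio of Nr1d1 to Arntl in WN was 1.298 and 1.91 uncrushed, 2.69 and 3.735 on day 5 and between 0.5501 and 0.862 on days 3 and 7. In SC it was 0.613 and 0.857 uncrushed and between 2.06 and 3.76 after crush. The hour of collection was not tested.

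Dbp, the D-box output factor, stood lower in SC than in WN uncrushed and on days 3 and 5. SC readings were 5.12 and 3.67 uncrushed, 3.27 and 4.25 on day 3, 7.16 and 4.74 on day 5 and 8.18 and 6.995 on day 7. WN readings were 16.4 and 12.5 uncrushed, 8.59 and 6.21 on day 3, 13.9 and 12.4 on day 5 and 9.92 and 13.2 on day 7. In SC day 7 lay above uncrushed without overlap, in WN day 3 lay below it without overlap, and the other days overlapped uncrushed. The rise in SC on day 7 was 1.76-fold (adjusted p = 0.0361), lost without the second uncrushed or either day 7 library (adjusted p up to 0.18) and in DESeq2 (0.0865), with log2 estimates of -0.20 on day 3 and 0.46 on day 5 (adjusted p = 0.573 and 0.187). In WN the fall on day 3 was 2.09-fold (adjusted p = 0.00277), with estimates of -0.22 and -0.43 on days 5 and 7 (adjusted p = 0.455 and 0.169). The tissue difference on day 7 was 1.13 ± 0.38 on the log2 scale (SE, adjusted p = 0.0395), a call lost without the second uncrushed SC, the first uncrushed WN, either day 7 SC or the first day 7 WN library (adjusted p up to 0.144) and in DESeq2 (0.0502). Uncrushed, Dbp was 3.36-fold lower in SC than in WN (adjusted p = 6.69e-05), and the day 3 call of its lower SC level (adjusted p = 0.00562) was lost without the first day 3 WN library (adjusted p = 0.0733).

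**Figure D4:**
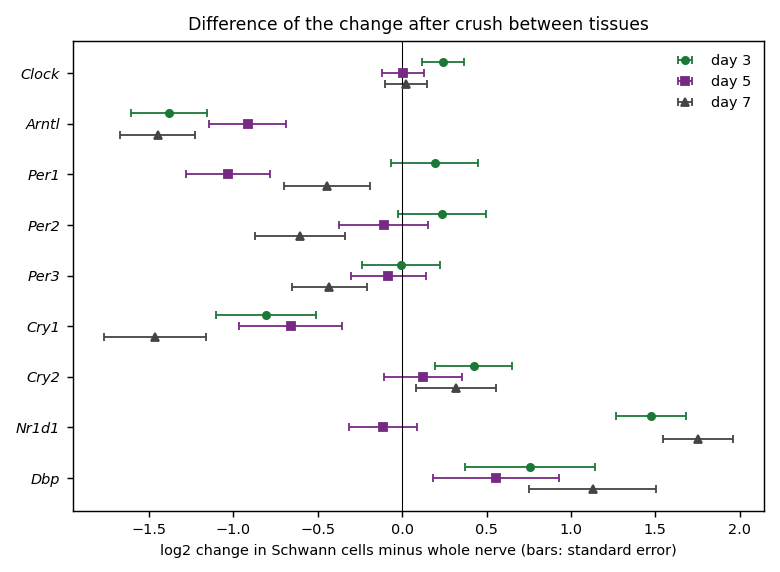
Log2 change after crush in Schwann cells minus that in whole nerve for the 9 clock genes other than Npas2, on days 3, 5 and 7 (circles, squares and triangles), with standard errors (bars). Arntl lies at -1.38, -0.92 and -1.45, and Nr1d1 at 1.48, -0.12 and 1.75.

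Between days 3 and 7 in Schwann cells, 4 of the 9 genes other than Npas2 were called, where 21.0% of all genes were (10.2% higher and 10.7% lower). Nr1d1 was 1.75-fold, Dbp 2.03-fold and Per3 1.42-fold higher on day 7, and Clock was lower (log2 -0.33, adjusted p = 0.00133, 0.0268, 0.044 and 0.0327). The Nr1d1 call held in every fit without 1 library, whereas Dbp was lost without either day 3 or either day 7 library (adjusted p up to 0.143) and Clock without either day 3, either day 5 or either day 7 library (adjusted p up to 0.201), with upper quartile normalization (0.0666) and with no filter on low counts (0.0572). In WN, Per1, Per2, Per3 and Nr1d1 were higher on day 7 than on day 3, where 21.2% of all genes were called (9.85% higher and 11.4% lower). Per1 was 1.91-fold higher (adjusted p = 0.00626), lost without the first day 3 library (adjusted p = 0.0604), and Per2 1.53-fold (adjusted p = 0.00896), lost without either day 3 library (adjusted p up to 0.0648). Nr1d1 was 1.43-fold higher (adjusted p = 0.0492), lost without either day 3, either day 5 or the second day 7 library (adjusted p up to 0.285), with median-ratio size factors (0.051), in DESeq2 (0.0681) and in a fit on the 4 libraries compared (0.0693).

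The rest of the loop was read from lists of further loop genes, kinase and ubiquitin ligase genes and output genes, of which 27 were tested. In SC, 10, 6 and 6 were higher and 6, 9 and 7 lower on days 3, 5 and 7, and in WN 7, 6 and 4 were higher and 7, 7 and 4 lower. Over all genes tested, 26.9%, 29.0% and 25.0% were higher and 25.7%, 25.6% and 21.9% lower in SC, and 23.1%, 18.9% and 15.4% higher and 22.5%, 19.5% and 15.9% lower in WN. These counts include genes that passed the filter on low counts through the groups where they were high, which were Arntl2 in both tissues, Hlf and Rorb in SC and Ciart in WN. The median log2 change of the 27 was 0.21, 0.00 and -0.10 in SC, beside 0.00, 0.06 and 0.06 for all genes, and -0.08, 0.01 and 0.00 in WN, beside 0.00, -0.01 and 0.02.

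Among the loop genes, Bhlhe40 (DEC1) encodes a repressor that competes for E-boxes. It went in SC from 52.2 and 48.4 TMM-scaled FPKM uncrushed to 11.6 and 12.9 on day 3 and between 5.83 and 7.38 on days 5 and 7, and it lay between 9.24 and 13.4 in WN. All injured SC libraries were far below the uncrushed pair, and on days 5 and 7 they were also below every WN library. Its log2 change in SC was -2.01 ± 0.14, -2.91 ± 0.15 and -2.95 ± 0.15 (SE, adjusted p = 2.05e-06, 4.14e-07 and 5.92e-07). In WN it was called higher on day 3 (log2 0.41, adjusted p = 0.0227), which was lost without either uncrushed or either day 3 library (adjusted p up to 0.115) and in DESeq2 (0.0557). Nfil3 (E4BP4), which opposes DBP at D-boxes, went in SC from 94.6 and 80.75 to between 39.01 and 51.3 (log2 -0.97, -1.02 and -1.09, adjusted p = 0.000208, 0.000154 and 0.00014) and rose in WN on day 3 (log2 1.08, adjusted p = 0.00103). Its WN group means were 4.55 uncrushed and 9.94, 6.77 and 6.26 on days 3, 5 and 7, below the SC levels at every time. The changes of both genes were lower in SC than in WN on all days (adjusted p = 3.4e-07, 4.46e-08 and 6.91e-08 for Bhlhe40 and 8.46e-06, 0.00015 and 0.00022 for Nfil3).

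Nr1d2, the paralogue of Nr1d1, was 17.99 and 19.98 uncrushed, 6.07 and 6.05 on day 3, 15.7 and 16.9 on day 5 and 12.9 and 13.6 on day 7 in WN, so day 3 was its lowest group there as for Nr1d1 (log2 -1.71 ± 0.10 SE, adjusted p = 3.21e-07). In SC it lay between 15.2 and 20.99 and was called lower on day 5 (log2 -0.29, adjusted p = 0.0389), which was lost without the first uncrushed, the second day 3, either day 5 or either day 7 library (adjusted p up to 0.247), with no filter on low counts (0.0704), with replicate number as a block (0.0541) and in a fit on the 4 libraries compared (0.0578). Rora, which activates Arntl through the ROR element, rose in SC on day 3 (from 9.27 and 11.4 to 16.85 and 16.1, log2 0.70, adjusted p = 0.00117) and fell in WN on all days (log2 -0.93, -0.59 and -0.49, adjusted p = 1.06e-05, 0.000336 and 0.00155). Hlf, a relative of Dbp, held 39.3 and 17 counts in uncrushed SC and between 0 and 13 in injured SC. In WN Hlf fell on days 3 and 5 (log2 -1.58 and -0.96, adjusted p = 5.17e-06 and 0.000225). Arntl2, a paralogue of Arntl, held 3.96 and 1 counts in uncrushed SC and 0 in both uncrushed WN libraries, against between 8.29 and 46.1 in injured SC and between 4.29 and 31.2 in injured WN. Hlf in SC and Arntl2 in both tissues passed the filter on low counts through the groups where they were high, so no fold change or test is printed for them, and their colours and asterisks in the colour map of further clock genes have the same limit.

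Of the genes for enzymes that set the stability of PER and CRY, Fbxl21 had the highest estimates in SC on all days and in WN on days 3 and 5. It encodes an F-box protein that binds CRY. The SC libraries gave 0.328 and 0.511 uncrushed, 3.92 and 4.81 on day 3, 4.37 and 5.24 on day 5 and 3.18 and 4.16 on day 7, on 12 and 16 counts uncrushed and 146 or more injured. The WN libraries gave 1.12 and 1.91 uncrushed, 4.58 and 4.196 on day 3, 2.699 and 3.99 on day 5 and 1.38 and 1.86 on day 7. All injured SC libraries were above the uncrushed pair, and WN on day 7 overlapped uncrushed. The log2 change in SC was 3.70 ± 0.26, 3.64 ± 0.26 and 3.32 ± 0.26 (SE, adjusted p = 2.25e-06, 3.06e-06 and 9e-06), and it exceeded that in WN on all days (adjusted p = 0.00129, 0.000284 and 5.09e-05). Csnk1e, a kinase of PER, and Btrc, a ligase subunit for phosphorylated PER, rose in SC on all days (log2 0.68, 0.84 and 0.70 for Csnk1e and 1.28, 0.63 and 0.74 for Btrc, adjusted p = 0.00134, 0.000352 and 0.00139 and 2.35e-05, 0.00242 and 0.00114).

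Among output genes, Noct (nocturnin) fell in SC (log2 -1.50, -1.66 and -1.36, adjusted p = 0.00812, 0.00507 and 0.0153), although its uncrushed libraries themselves differed, at 7.96 and 19.7. Without the second uncrushed library the log2 estimates shrank to -0.73 on day 3 and -0.59 on day 7, and both calls were lost. The day 7 call was also lost without the first day 7 library (log2 -1.02). Pdk4, a kinase gene that limits glucose oxidation, rose on day 3 in both tissues (log2 1.09 in SC and 1.10 in WN, adjusted p = 0.00458 and 0.000667). Nampt, the rate-limiting enzyme of NAD salvage, rose in SC on all days (log2 0.62, 0.50 and 0.54, adjusted p = 0.00835, 0.0227 and 0.0178), with the calls lost on day 3 without the first day 3 library (adjusted p = 0.0576), on day 5 without the first uncrushed or the first day 5 library (adjusted p up to 0.119) and in a fit on the 4 libraries compared (0.0572) and on day 7 without the first uncrushed or the second day 7 library (adjusted p up to 0.101) and in a fit on the 4 libraries compared (0.0604).

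**Figure D5:**
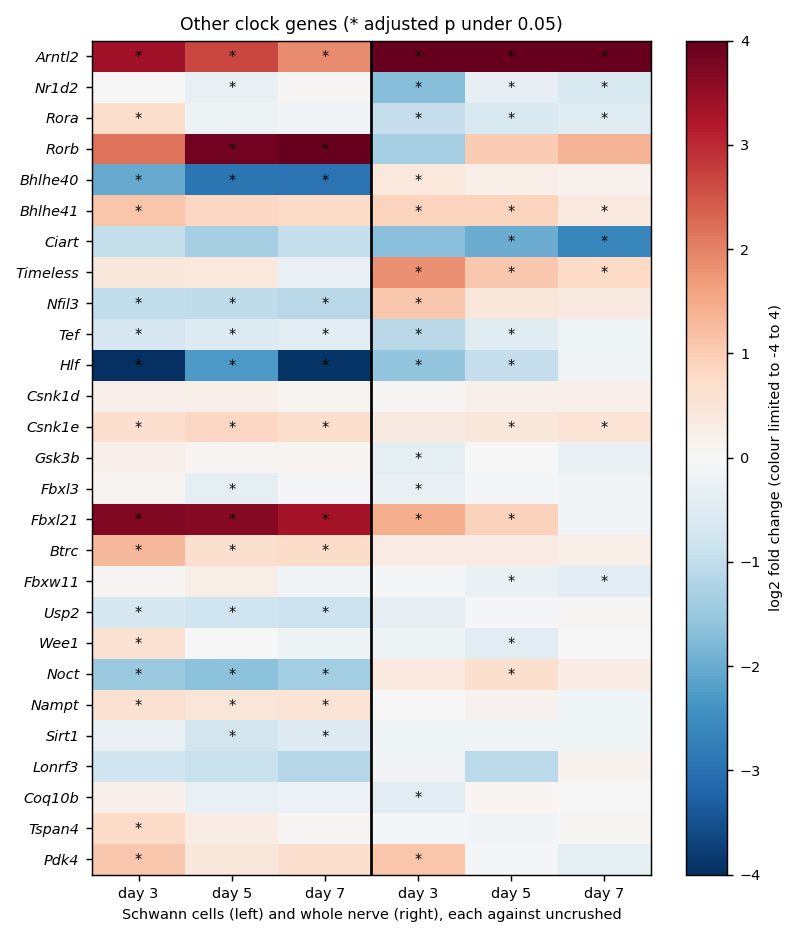
Log2 fold change against uncrushed of 27 further clock genes (rows) on days 3, 5 and 7 in Schwann cells (left columns) and whole nerve (right columns), as colour limited to the range from -4 to 4, with asterisks at an adjusted p under 0.05. Bhlhe40 and Nfil3 are blue with asterisks in all Schwann cell columns and Fbxl21 is red in all of them, and the bluest cell of Nr1d2 is whole nerve on day 3 (-1.71).

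The genes most like Npas2 over the 16 libraries, on FPKM as deposited and not TMM-scaled, were Baalc, Plppr2, Ankrd6, Crmp1 and Plxna1. The measure was the Pearson correlation of log2(FPKM + 1) among 12830 genes with a mean deposited FPKM of at least 1. The r of these 5 genes was 0.988, 0.985, 0.982, 0.981 and 0.976, a description over libraries that share groups and tissue. Baalc had TMM-scaled group means of 6.15 in uncrushed SC, 94.4 on day 3 and 129.7 on day 7, and of 14.5 in uncrushed WN and 40.97 on day 3. With a pseudocount of 0.1 Ctnnb1 replaced Plxna1 among the 5. By the same measure Nr1d1 was the most like Npas2 of the 9 other members (r = 0.483) and Clock the least (r = -0.865).

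A separate deposited table of FPKM for genes of a co-expression analysis, taken from the study's methods to be Cufflinks values of Schwann cells, held 5 of the 10 members. In it Npas2 was 0.193 and 0.224 uncrushed and between 9.36 and 16.5 after crush. Its group means gave the same directions against uncrushed as the RSEM FPKM for Npas2, Arntl, Per3 and Nr1d1 on all days and for Dbp on days 5 and 7. Dbp on day 3 differed in sign, at 0.23 against -0.25 on the log2 scale. Over the 6230 genes shared by the 2 tables, the median of that difference was 0.40 on day 3, 0.65 on day 5 and 0.47 on day 7, so the tables were scaled differently.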

How the data were processed

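RNA-seq was done on purified Schwann cells and whole rat sciatic nerve, uncrushed or 3, 5 or 7 days after crush. Per the labels and methods, the authors aligned reads with STAR to Rnor_6.0 and deposited RSEM expected counts and FPKM for each library, and a matrix of the same estimates. A further deposited table of FPKM names only days in its header. From the study's methods it was taken to hold Schwann cell values that the authors made with Cufflinks.

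Expected counts were rounded to whole numbers. Genes were filtered with filterByExpr, normalized by TMM and tested with edgeR 4.0.16 (quasi-likelihood, limma 3.58.1, R 4.3.3), with Benjamini-Hochberg adjustment over all genes tested and a threshold of 0.05. Comparisons with uncrushed and between days used the 8 libraries of a tissue, and comparisons between tissues used all 16. An exact permutation test of 2 against 2 libraries cannot go below p = 0.333 and was not used. Totals of 10555067 to 27562637 counts set the precision, so genes at a few counts are given as counts. Alternatives were DESeq2 1.42.0, median-ratio and upper quartile normalization, other filters, other sets of libraries fitted, replicate number as a block and each library left out. The edgeR and DESeq2 fits were tested on simulated counts for the comparison of Schwann cells on day 3 with uncrushed. The other steps were not tested on simulated data.

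The members and gene lists were chosen with earlier results of these data known. Among further clock genes, those called against uncrushed could be named. Of these, the ones given are a choice made after their values were seen. TMM-scaled FPKM and the whole nerve comparisons of day 5 with days 3 and 7 were also chosen after the values were seen. One listed gene is not reported here. Figures were drawn with Python 3.11.15. Genes were joined to RefSeq promoter windows by symbol, and no coordinates were converted between builds.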

Additional observations from a re-analysis of the deposited data

Results flagged for a closer look

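The change after crush in Schwann cells was compared with that in whole nerve by an interaction term in the edgeR fit of all 16 libraries. Of the 9 clock genes other than Npas2, 2 differed on day 3, 2 on day 5 and 4 on day 7, where 26.0%, 27.5% and 26.0% of all genes tested did. The log2 change in Schwann cells minus that in whole nerve was -1.38 for Arntl on day 3, -0.92 on day 5 and -1.45 on day 7 (adjusted p = 0.000373, 0.00779 and 0.000288). For Per1 it was -1.03 on day 5 (adjusted p = 0.00681) and for Cry1 -1.46 on day 7 (adjusted p = 0.00258). For Nr1d1 it was 1.48 on day 3 and 1.75 on day 7 (adjusted p = 0.000114 and 2.73e-05). For Dbp it was 1.13 on day 7 (adjusted p = 0.0395), a call lost in DESeq2 (0.0502) and without the second uncrushed or either day 7 Schwann cell library or the first uncrushed or first day 7 whole nerve library (up to 0.144). The differences of different days share the uncrushed libraries. Groups of 2 libraries are too small for a test of outlying samples.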

How the results depend on the processing

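Results here are the log2 changes given for the 10 genes, each with its call. DESeq2 ended the call of 8 of 104 results, upper quartile normalization ended 2 and added 1, and median-ratio factors ended 1 and added 1. No filter on low counts ended 2 and added 3, and at least 10 counts in every library added 2. A fit on all 16 libraries ended 3 and added 2 of 73, and a fit on the 4 libraries compared ended 5 and added 1 of 96. None of these settings turned a direction for the 10 genes. The fits without 1 library also dropped libraries of groups outside a comparison, which mainly changes the shared spread. Leaving out 1 library kept 968 of 1080 results on their side of the threshold, ended 101 calls and added 6, and turned 5 estimates that were not called: Cry2 in Schwann cells on day 3 ranged from -0.206 to 0.0585, Dbp in Schwann cells on day 3 from -0.435 to 0.045 and Arntl in whole nerve on day 3 from -0.0916 to 0.205 on the log2 scale. Without 1 library the number of members called ranged from 3 to 6 in Schwann cells on day 3, from 5 to 8 in whole nerve on day 5, and from 1 to 5 in Schwann cells between days 7 and 3. In whole nerve it ranged from 1 to 4 between days 7 and 3, from 2 to 5 between days 5 and 3 and from 1 to 5 between days 7 and 5. Of all genes, 1172 were called between whole nerve days 7 and 5 and 2247 with no filter on low counts. Without 1 library it was 323 to 1314, and 510 to 1973 between whole nerve days 5 and 3 (1828 with all), 1635 to 3571 between whole nerve days 7 and 3 (3357 with all) and 1533 to 3643 between Schwann cell days 7 and 3 (3140 with all). Within a tissue, deviations of same-numbered libraries correlated between -0.0576 and 0.0838 across groups, which showed no pairing by replicate number but cannot exclude a shared litter or batch. Pairing of same-numbered Schwann cell and whole nerve libraries was not examined. With replicate number as a block, 103 of 104 results kept their call, Per3 in Schwann cells between days 7 and 3 was lost (adjusted p = 0.0637), and 5 members were called in each of the 3 whole nerve comparisons between days, and 3 in the tissue difference on day 3. With 2 libraries a group, a left-out library leaves 1 that is assumed to vary like the other groups. The depth limited Npas2 in uncrushed Schwann cells (31 and 28 counts) and Arntl2, Rorb and Hlf, which held a few counts in some groups. The cause of each change was not tested.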
